A study of Mus musculus with 2 samples.

Results

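The regions described here are the Foxf2-FLAG peaks around 2 groups of neighbouring forkhead genes, Foxq1, Foxf2 and Foxc1 on chromosome 13 and Foxf1a, Foxc2 and Foxl1 on chromosome 8 (build mm9, GENCODE vM1 genes). Foxf1a is the older symbol of Foxf1. A peak was included when its centre lay within 300 kb of an annotated transcription start site (TSS) of any of the 6 genes, which took 17 of 9165 peaks, 8 on chromosome 13 and 9 on chromosome 8. Binding was measured by chromatin immunoprecipitation and sequencing (ChIP-seq) with an anti-FLAG antibody in E13.5 palatal shelves, pooled from 50 pairs, of mice homozygous for a genome-edited Foxf2 allele that encodes the protein with a 3xFLAG tag. There was 1 ChIP library and 1 input library, both from such embryos per the labels, and no untagged control was analysed here. With no replicates, every interval and test below covers counting error within these libraries only. The tags of a peak are PCR-amplified reads without molecular identifiers.

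Forkhead proteins bind DNA through a winged-helix domain, and many of them recognise variants of the sequence RTAAAYA (R is A or G, Y is C or T). Foxf1 and Foxf2 are closely related factors of embryonic mesenchyme whose genes respond to hedgehog signals from adjoining epithelium, and loss of Foxf2 in mice causes cleft palate. The chromosome 13 and chromosome 8 groups each place an F-class gene beside a C-class gene, and the C-class factors Foxc1 and Foxc2 act in neural crest, somite and vascular development. Foxq1 is known from hair and stomach, and Foxl1 from the mesenchyme of the gut.

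The ChIP library held 26849463 tags and the input 0.716 times as many, as derived from the deposited scaled values. Over all peaks the median was 30 ChIP tags (range 14 to 693), the median score 25 and the median fold over input 12.9. No expression was measured, so the labelled tissue could be compared with its markers only through binding. Of 12 genes of palatal mesenchyme, 11 had a peak assigned to them, the exception being Osr1, against 1 of 6 epithelial, 2 of 6 endothelial, 0 of 4 neural and 1 of 4 muscle genes. Over all protein-coding genes the share was 22.0%. The marker lists were chosen with earlier results of these data known, so these counts are descriptions and do not test which cells were present.

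The sequences below carry forkhead matches of peaks on which the results turn, chosen from those with many tags and those next to the F-class genes. Each printed window holds GTAAACA, which not every member peak has. The Foxl1 peak with 190 tags, whose sites are all ATAAACA, is not among them. They are read from the mm9 plus strand, 5′ to 3′, and capitals mark RTAAAYA on either strand (on the minus strand it reads TRTTTAY), or, in the second sequence, also GACCACCCA, which is TGGGTGGTC on the minus strand, the consensus of the GLI factors that act at the end of the hedgehog pathway.
Foxf2, peak 6.74 kb downstream of the TSS, chr13:31724368-31724518: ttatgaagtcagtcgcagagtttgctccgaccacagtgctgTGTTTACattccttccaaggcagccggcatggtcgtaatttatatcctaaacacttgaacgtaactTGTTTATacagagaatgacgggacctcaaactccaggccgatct
Foxf2, peak 42.7 kb downstream, chr13:31760186-31760406: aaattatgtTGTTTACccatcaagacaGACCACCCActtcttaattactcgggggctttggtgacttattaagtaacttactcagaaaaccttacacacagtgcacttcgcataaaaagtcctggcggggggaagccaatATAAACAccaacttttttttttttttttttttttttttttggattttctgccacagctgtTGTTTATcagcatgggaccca
Foxf2, peak 7.30 kb upstream, chr13:31710134-31710193: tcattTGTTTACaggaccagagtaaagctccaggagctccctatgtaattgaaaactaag
Foxc1, peak 35.8 kb downstream, chr13:31934266-31934366: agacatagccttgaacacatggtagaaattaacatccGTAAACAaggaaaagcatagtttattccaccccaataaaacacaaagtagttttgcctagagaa
Foxf1a, peak 0.952 kb upstream, chr8:123607099-123607169: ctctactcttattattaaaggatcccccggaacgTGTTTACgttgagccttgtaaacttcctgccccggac
Foxf1a, peak 11.0 kb upstream, chr8:123597346-123597416: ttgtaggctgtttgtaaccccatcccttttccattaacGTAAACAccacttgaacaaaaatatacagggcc
Foxl1, peak 287 kb downstream, chr8:123938223-123938473: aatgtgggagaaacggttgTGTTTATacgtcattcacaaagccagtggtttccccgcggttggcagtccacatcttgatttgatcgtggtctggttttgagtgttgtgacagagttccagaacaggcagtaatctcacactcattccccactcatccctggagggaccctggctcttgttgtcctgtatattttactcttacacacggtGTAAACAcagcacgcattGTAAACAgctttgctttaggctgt

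All 6 genes had a peak within 300 kb of a TSS, as did 82.1% of protein-coding genes, so that count says little about them. Foxq1, Foxf2, Foxc1 and Foxf1a had 7 such peaks each, Foxc2 had 8 and Foxl1 had 9, where the median protein-coding gene had 2. At least 7 peaks were found around 6.66% of protein-coding genes. The genes of a cluster share most of these peaks, so the 6 values are not independent.

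**Figure D1:**
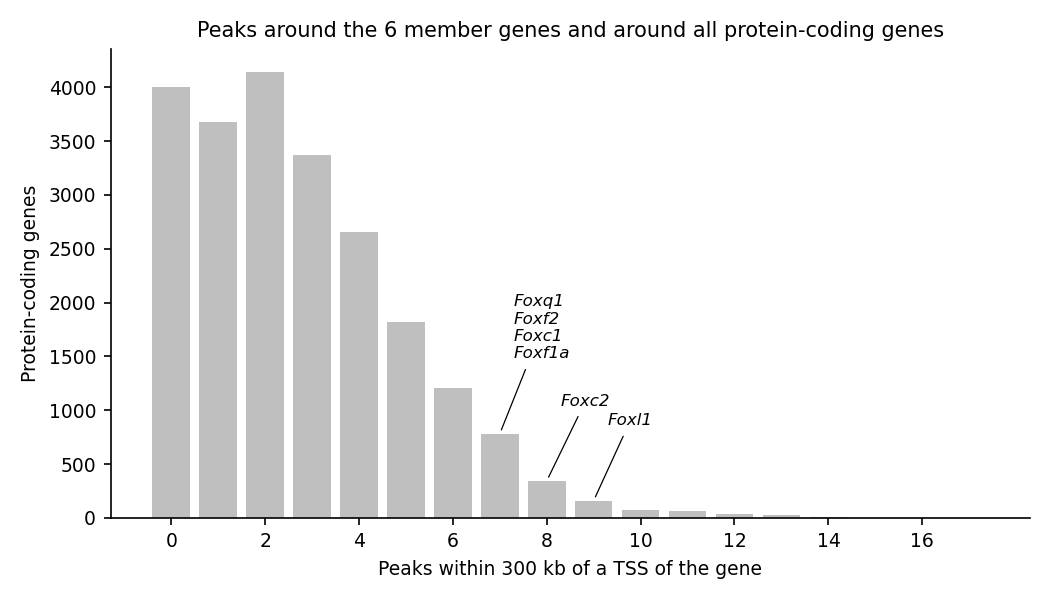
Number of protein-coding genes (bars) by the number of Foxf2-FLAG peaks within 300 kb of a TSS. The 6 forkhead genes of the clusters, at 7, 8 or 9 peaks, sit in the upper tail of the distribution, above its median of 2.

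When each peak was given to the gene with the nearest coding TSS within 100 kb, each of the 6 genes received at least 1, against 22.0% of all protein-coding genes. Foxf2, Foxc1, Foxf1a and Foxl1 received 3 each, a number reached by 2.01% of genes, while Foxq1 and Foxc2 received 1 each. Within 10 kb of the TSS, 5 of the 6 genes kept an assigned peak (14.9% of all genes) and Foxq1 did not. Summed over assigned peaks, Foxf2 had 353 ChIP tags, Foxl1 250, Foxf1a 145, Foxc1 113, and Foxq1 and Foxc2 20 each. Foxl1 is annotated as a pseudogene in GENCODE vM1, over a stretch shorter than the RefSeq gene, which is protein-coding. It was counted as coding here. Taken as annotated, its 3 peaks went to Foxc2, which then had 4.

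Foxf2 itself, the gene that carries the tag (chromosome 13:31717685-31723272), had the peak with the most tags of both clusters. It lay in intergenic sequence at 31723917-31724940, began 645 bp past the end of the gene, and held 255 ChIP tags (95% Poisson interval 225 to 288) against 12 input tags. The fold over input was 15.2 (8.56 to 29.9). By tags it ranked 21 of the 9165 peaks, whereas its score of 30, the peak caller's own measure, exceeded that of 61.5% of peaks. This peak was 1023 bp wide, and per kb its 249 tags exceeded 99.4% of peaks. Of its 3 forkhead sites, GTAAACA at 31724409-31724415 and ATAAACA at 31724475-31724481 start 66 bp apart on the minus strand near the centre, as shown in the first sequence.

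The other Foxf2 peaks held fewer tags but had higher scores, 35 and 49. The peak 42.7 kb downstream, at 31760161-31760661, held 50 ChIP tags (37.1 to 65.9) and 1 input tag. Its fold of 35.8 was the highest of the 17, but with a single input tag the interval ran from 6.14 to 1443. It combined 3 forkhead sites with the match to TGGGTGGTC at 31760213-31760221, which starts 18 bp from the GTAAACA at 31760195-31760201. This was the 1 match to TGGGTGGTC among the 17 peaks. Over all peaks, 0.415% had the match within 500 bp around the centre, and 0.349% of equally long windows centred 2000 bp from the peak centres, towards lower coordinates, did, 38 and 32 windows of 9165. This motif was chosen after the member peaks had been scanned.

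The third Foxf2 peak, 7.30 kb upstream at 31710133-31710633, held 48 ChIP tags (35.4 to 63.6) against 3 input tags (11.5-fold, 3.69 to 57.5). Its centre was 654 bp upstream of the start of Gm11378, a noncoding transcript of unknown role that the annotation places between the peak and Foxf2. Its GTAAACA was at the edge of the peak, 241 bp from the centre. No peak centre lay within 1 kb of the Foxf2 TSS.

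**Figure D2:**
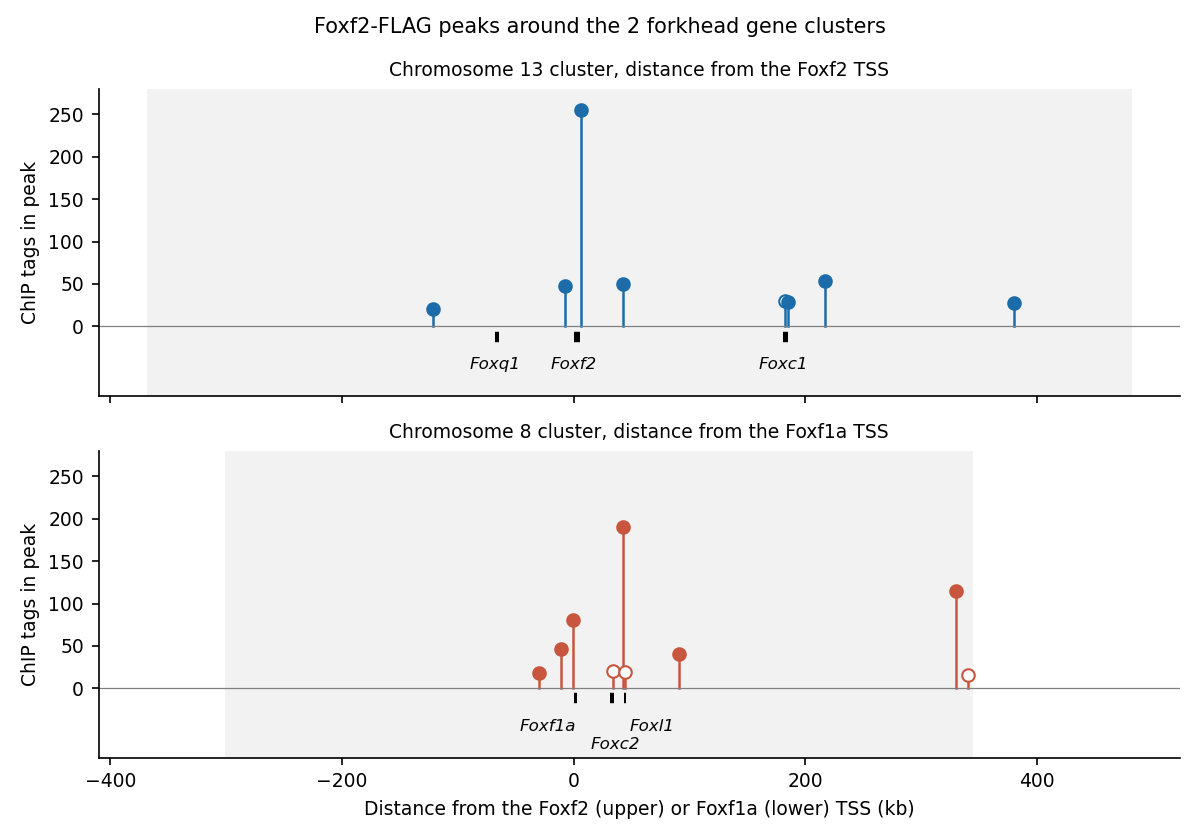
ChIP tags of each peak (vertical axis) by distance in kb from the Foxf2 TSS (upper panel) or the Foxf1a TSS (lower panel). Shading marks the sequence within 300 kb of a member TSS, black bars the genes, and filled circles the peaks with RTAAAYA anywhere in the peak. The tallest peaks, 255 and 190 tags, stand beside Foxf2 and Foxl1.

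Foxf1a, the paralogue of Foxf2 (chromosome 8:123608286-123610851), had all of its 3 assigned peaks upstream. The nearest, at 123606790-123607878, held 81 ChIP tags (64.3 to 101) against 5 input tags, an 11.6-fold excess (4.77 to 36.7) with a score of 50. It ended 408 bp short of the Foxf1a TSS and contained the start of 1110050K14Rik. This is the noncoding RNA gene that RefSeq names Fendrr, which is transcribed away from Foxf1a. The centre was 402 bp from the Fendrr start, nearer than to Foxf1a. The peak had a GC content of 67.9% and 1 forkhead site, GTAAACA at 123607133-123607139.

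The peak 11.0 kb upstream, at 123597036-123597536, was centred in an intron of Fendrr and overlapped 1 of its exons. It held 46 ChIP tags (33.7 to 61.4) against 2 input tags (16.5-fold, 4.31 to 140), with GTAAACA at 123597384-123597390. The peak 30.0 kb upstream, past the far end of Fendrr, held 18 tags against 1. Both F-class genes thus had a peak near the start of a noncoding transcript on their upstream side, but only the Foxf1a peak contained that start. How often peaks of the whole list lie near such a start was not counted. The peak on the downstream side that was highest at Foxf2 had no counterpart assigned to Foxf1a.

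At Foxc1 (chromosome 13:31898515-31902504) the peak inside the gene and the one just past it were near the median of all peaks by tags and score. Their folds, 10.7 and 10.4, exceeded those of only 11.3% and 6.71% of peaks. The first, 1.30 kb downstream of the TSS at 31899465-31900160, was centred in the coding exon and held 30 ChIP tags against 2 input tags (10.7-fold, 2.73 to 92.8). It had no RTAAAYA and the highest GC content of the 17, 71.8%. The second, at 31902676-31903176, began 172 bp past the gene and held 29 tags against 2. The highest-scoring Foxc1 peak (53) lay 35.8 kb downstream at 31934033-31934659, in an intron of Gmds, which encodes an enzyme of GDP-fucose synthesis. It held 54 ChIP tags (40.6 to 70.5) against 2 input tags (19.3-fold, 5.10 to 164), with GTAAACA 40 bp from the centre. Another Gmds intron peak, 199 kb from Foxc1, held 28 tags against 2. No peak of the whole list had a lower fold than its 10.03.

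Foxc2 (chromosome 8:123640071-123642792) resembled Foxc1 in having a GC-rich peak without a forkhead site inside the gene. The trait is not particular to the C-class genes, since Foxl1 had such a peak too, with a GC content of 63.3%. The Foxc2 peak, at 123641590-123642090, was centred in the coding exon and reached into the 3′ untranslated region. It held 20 ChIP tags (12.2 to 30.9) against 1 input tag and had a GC content of 68.3%. Its score of 21 exceeded that of 34.6% of all peaks, so it was among the weaker peaks of the list.

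Foxl1 (chromosome 8:123651840-123652929) had the peak with the most tags of the chromosome 8 cluster. At 123650526-123651890 it covered the annotated start of the gene and held 190 ChIP tags (164 to 219) against 8 input tags, a 17.01-fold excess (8.46 to 39.98). Its score of 59 was the highest of the 17, and by tags it ranked 101 of all peaks. It was 1364 bp wide, and per kb its 139 tags exceeded 91.5% of peaks. Its 4 forkhead sites were all ATAAACA, and none lay in the central 200 bp. The interval of its tags did not overlap that of the 255 tags downstream of Foxf2, and the folds of these peaks, 17.01 and 15.2, lay within each other's intervals.

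A second Foxl1 peak, 0.685 kb from the end of the first, was centred in the annotated Foxl1 exon at 123652575-123653075, held 19 ChIP tags against 1 input tag and had no forkhead site. A peak 47.3 kb downstream, at 123698920-123699420, held 41 ChIP tags against 2 (14.7-fold, 3.81 to 125). At the far end of the window, 287 kb from Foxl1 at 123937947-123938780, a peak held 115 ChIP tags (94.9 to 138) against 8 input tags (10.3-fold, 5.05 to 24.4). It carried a pair of GTAAACA sites that start 18 bp apart on the plus strand. The nearest coding TSS to this peak was that of 1700018B08Rik, 127 kb away, and another peak, with 16 tags, lay 9.57 kb beyond it.

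Foxq1 (chromosome 13:31650039-31652839) had the weakest assigned binding together with Foxc2. Its 1 peak lay 53.6 kb upstream in intergenic sequence at 31596162-31596662 and held 20 ChIP tags against 1 input tag (14.3-fold, 2.29 to 594). The score of 17 was the lowest that occurred in the whole list. The 2 sites in it were GTAAACA and ATAAATA.

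**Figure D3:**
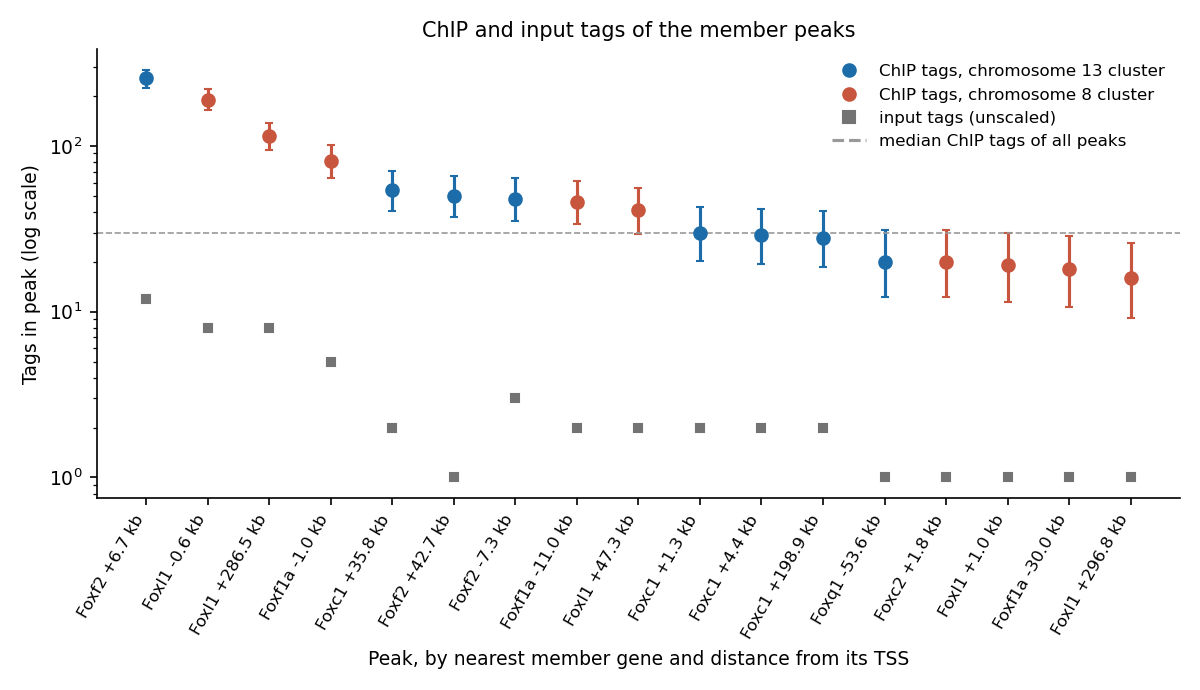
ChIP tags (circles, with exact 95% Poisson intervals) and unscaled input tags (squares) of the 17 peaks on a log axis, in order of ChIP tags and named by the nearest member gene and the distance from its TSS. The intervals of the first 3 peaks, with 255, 190 and 115 tags, do not overlap one another, and from the peak with 115 tags downwards each interval overlaps the next. Tags are not corrected for peak width.

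In order of ChIP tags, the peaks with 255, 190 and 115 tags had intervals that did not overlap one another. The peaks with 115 and 81 tags overlapped, and from 54 tags downwards each interval overlapped the next. At least 100 tags were held by 3 of the 17 peaks (17.6%), against 7.56% of all peaks, and at least 15-fold excess by 5 (29.4%), against 33.5%. The median of the 17 was 41 tags, a score of 30 and a 13.6-fold excess, beside 30, 25 and 12.9 over all peaks. The number of input tags, from 1 to 12 per peak, limits every fold.

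**Figure D4:**
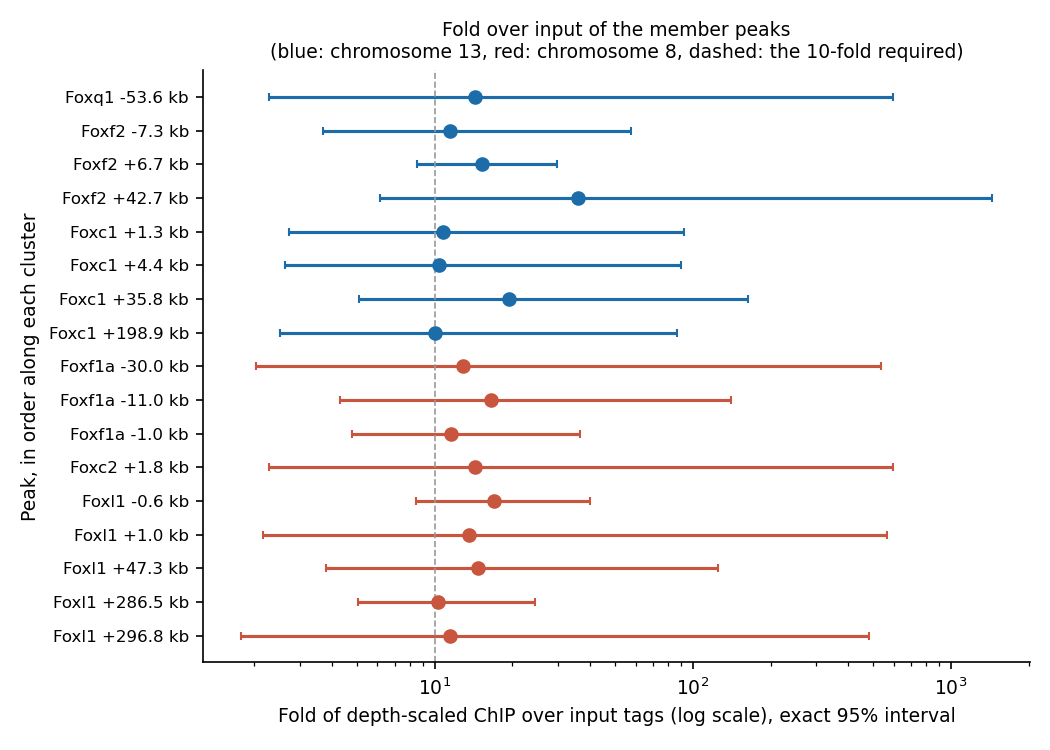
Fold of ChIP over input tags, scaled for depth, with exact 95% intervals on a log axis, for the 17 peaks in order along chromosome 13 (blue) and chromosome 8 (red). The dashed line is the 10-fold excess that peak calling required. All points lie above it, and only the folds with the most input tags, at 12 and 8, have intervals narrower than 5-fold from end to end.

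The clusters were then compared as wholes. The chromosome 13 window of 848 kb held 9.43 peaks per Mb (95% Poisson interval 4.07 to 18.6) and the chromosome 8 window of 644 kb held 14.0 (6.39 to 26.5), both above the 3.75 per Mb over the autosomes. Chromosomes 13 and 8 as wholes held 4.14 and 4.04 per Mb, and the interval of the chromosome 13 window includes 4.14. The ratio of the clusters was 0.674 (0.226 to 1.97), which did not differ from 1 by an exact conditional binomial test (two-sided p = 0.468, 8 against 9 peaks). Its direction turned in 3 alternatives, to 1.06 with only scores at or above the median of all peaks, and to 1.14 both with only peaks of at least 15-fold excess and with only peaks holding RTAAAYA in the central 200 bp (exact p of 1 in each). The summed tags were 514 ChIP against 25 input tags on chromosome 13 and 546 against 29 on chromosome 8, folds of 14.7 (9.86 to 23.0) and 13.49 (9.28 to 20.3). Their ratio was 1.09 (0.608 to 1.97, Fisher's exact test, two-sided p = 0.782). Both intervals include ratios up to 1.97, so these counts do not show that the clusters are alike. Every peak had also passed the 10-fold excess over input in these same libraries. The fold ratio thus compares values already selected on fold and cannot decide whether binding differs.

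The layout of the clusters differed in scale. The TSSs of Foxq1 and Foxf2 are 67.6 kb apart and those of Foxf2 and Foxc1 181 kb, whereas Foxf1a and Foxc2 are 31.8 kb and Foxc2 and Foxl1 11.8 kb apart. From the first gene's start to the last gene's end, 252 kb on chromosome 13 held 4 peaks and 44.6 kb on chromosome 8 held 3, a ratio of densities of 0.236 (0.0399 to 1.61, exact conditional binomial test, two-sided p = 0.0741), a comparison chosen after the positions were seen. Upstream of the genes lay 1 and 3 peaks, and downstream 3 and 3. On chromosome 8 no peak centre lay between the edge of the window and 30.0 kb upstream of Foxf1a. Within 1 kb of a member TSS lay 3 peaks on chromosome 8, for Foxf1a and Foxl1, and 0 on chromosome 13. Such a peak was found at 2 of the 6 genes and at 11.6% of all protein-coding genes.

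Paralogous genes were paired by class where possible, and the assigned peaks with the best score, which at Foxf2 is the one 7.30 kb upstream and not the one with the most tags, were compared by Fisher's exact test on ChIP and input tags (two-sided, 3 pairs, Benjamini-Hochberg). The fold at Foxf2 was 0.988 times that at Foxf1a (0.183 to 6.64), that at Foxc1 1.35 times that at Foxc2 (0.0218 to 27.2), and that at Foxq1 0.842 times that at Foxl1 (0.104 to 39.2). Each adjusted p was 1 by this exact test. With 1 to 8 input tags per peak, the intervals include ratios over 6-fold in each pair, so these comparisons show neither a difference nor its absence. These peaks too were called only with a 10-fold excess over input, the quantity compared.

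RTAAAYA was present anywhere in 13 of the 17 peaks, 7 of 8 on chromosome 13 and 6 of 9 on chromosome 8, with 12 sites in each cluster. No share over all peaks was set beside this count, so it cannot show whether these peaks differ from others. In the central 200 bp RTAAAYA was present in 5 of 17 (29.4%, Wilson 95% interval 13.3 to 53.1), beside 40.8% of all peaks and 18.2% of the flanking windows. In the 500 bp around the centre it was present in 12 (70.6%), beside 62.3% of all peaks and 39.6% of the flanking windows. The share at the centre and the share in the wider window thus lay on opposite sides of those of all peaks. The interval of the central share includes 40.8%, and no interval is given for the share in the wider window. The 17 peaks are not replicates, so both shares are descriptions.

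The stricter GTAAACA made up 10 of the 24 sites, 5 in each cluster, and was present within 500 bp around the centre in 9 of 17 peaks (52.9%), beside 26.9% of all peaks. In the central 200 bp it was present in 4 of the 17, a count with no share over all peaks to set beside it. GTAAACA was not counted in flanking windows, and whether it is enriched at these peaks was not tested. ATAAACA accounted for 3 sites on chromosome 13 and 6 on chromosome 8. GTAAATA accounted for 2 sites, both on chromosome 13. The 4 peaks without any site were those inside Foxc1, Foxc2 and Foxl1 and the outermost one, 297 kb from Foxl1. These held 16 to 30 ChIP tags and had a GC content of 52.3% to 71.8%, while the peaks with a site held 18 to 255 tags and had a GC content of 34.5% to 67.9%.

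**Figure D5:**
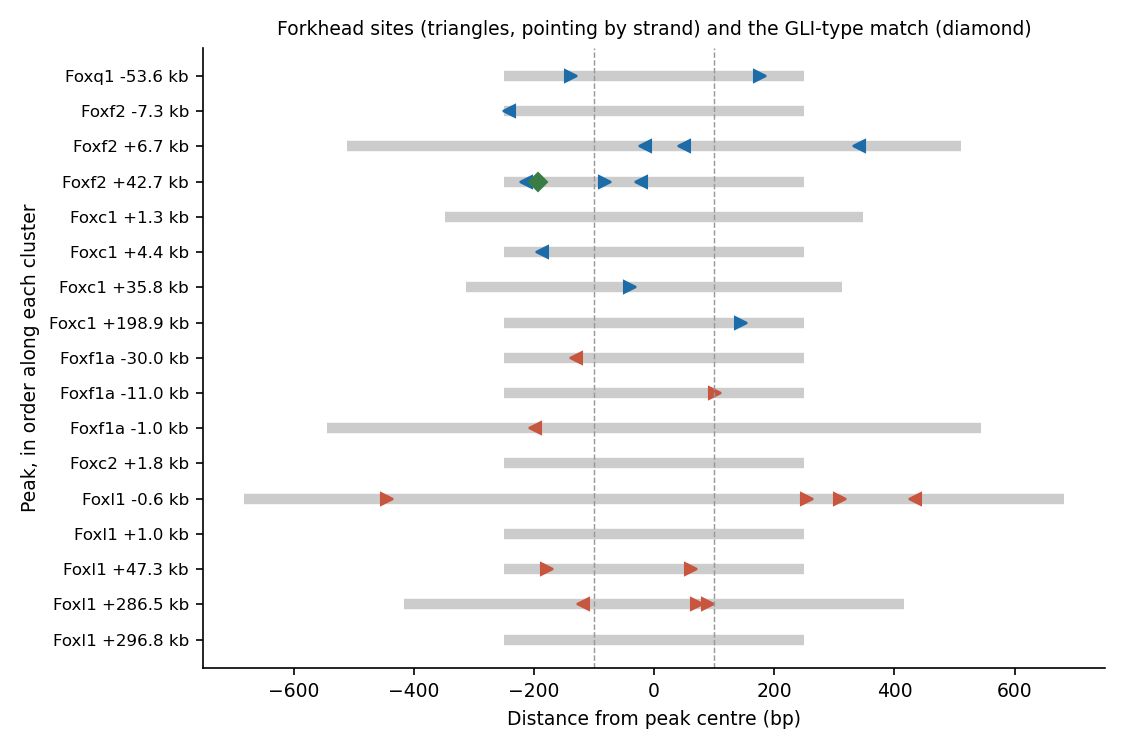
Positions of RTAAAYA (triangles, pointing right on the plus strand and left on the minus strand) and of TGGGTGGTC (diamond) in each of the 17 peaks (grey bars, to scale), in bp from the peak centre. Dashed lines bound the central 200 bp, which holds a site in 5 peaks, while 8 further peaks have sites outside it.

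Among the other forkhead genes, those with a symbol of Fox, a letter and a number, 16 of 38 (42.1%) had an assigned peak and 7 had at least 3, beside 22.0% and 2.01% of all protein-coding genes. The highest scores belonged to Foxo3 (128, 3 peaks), Foxp2 (90, 4 peaks), Foxi2 (86, 1 peak) and Foxd1 (74, 5 peaks), all above the best score of 59 in the clusters. Foxo3 is a stress-responsive regulator of cell survival, Foxp2 acts in neural and orofacial development, and Foxd1 is known from kidney stroma.

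The limit of 300 kb fell among peaks on chromosome 8 and not on chromosome 13. On chromosome 8 the peak with 115 tags lay 287 kb from Foxl1, the outermost included peak lay 297 kb from Foxl1 (16 ChIP tags against 1 input tag) and the first one outside lay at 302 kb (20 against 0). On chromosome 13 the outermost included peak lay at 199 kb and the first one outside at 461 kb, with 28 and 19 tags.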

How the data were processed

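Reads were aligned to mm9, and Bowtie 1.0.0, SAMtools 0.1.19 and HOMER were named, per the submitters' processing notes. For HOMER the sources used here give no version. The authors called peaks in HOMER's histone style with input as control, which merges neighbouring 500 bp peaks, with a tag threshold of 17, at most 1 tag per position, and a 10-fold excess over input and over the surrounding 10000 bp, per the file headers. The deposited signal is the ChIP tag number scaled to 10000000 tags. Multiplied back by the library total it lay within 0.134 of a whole tag and summed to 397999, the total in the header. Other deposited coverage columns are the ChIP tags scaled to input depth and the input tags, with 0.5 written for none. The deposited score and fold are the authors' values per peak, and folds printed here were recomputed from tags. The deposited p-value column and clonal ratio were not used.

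Peak coordinates were compared with NCBIM37 (mm9) chromosome lengths and are given as in the file. Each peak stood at its centre. Genes and starts came from GENCODE vM1, leaving out Gm20388, a putative readthrough transcript over 4.43 Mb that contains all 9 peaks on chromosome 8, as a location. Sequences were read from NCBIM37, and motifs were searched on both strands with Python 3.11.15, scipy 1.17.1 and pysam 0.24.0. Folds carry exact conditional 95% intervals and tags exact Poisson intervals. The printed windows were chosen after the member peaks had been scanned. The sequence of 1 window is not reported here. Scripts were tested on simulated data. Foxl1, a pseudogene in GENCODE vM1, was counted as protein-coding as in RefSeq, a choice made after its annotation was seen. The named genes were the 6 members, genes nearest to or containing a member peak, and the other forkhead genes with the 4 best scores or the 2 largest numbers of assigned peaks. Members and lists were chosen with earlier results of these data known.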

Additional observations from a re-analysis of the deposited data

How the results depend on the processing

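Of 29 alternatives to 6 results, 21 kept the direction and side of the threshold, or stayed within 1.5 times the count. With only peaks of at least 15-fold excess, 3 peaks were left on chromosome 13 and 2 on chromosome 8, and with only scores at or above the median of all peaks, 5 were left on chromosome 8. The density ratio of chromosome 13 to chromosome 8, 0.674, turned to 1.06 with those scores, to 1.14 with that excess and to 1.14 with only peaks holding RTAAAYA in the central 200 bp, each with an exact conditional binomial p of 1. These rest on fewer peaks. RTAAAYA was found in 13 peaks when searched over the whole peak and in 12 when searched in 500 bp, against 5 in the central 200 bp, since longer windows were searched. Counting Foxl1 as annotated and the density between the genes alone were alternatives chosen after seeing the data. The depth of the input, 1 to 12 tags per peak, is the limit on every fold. No paired analysis was possible because there is 1 library of each kind.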
